A study of Mus musculus with 40 samples.

Results

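The change from embryonic stem cells (ES) to hemangioblast-like cells (HB) was followed through the DNA fragments that drove a reporter gene at each stage. A fragment was called positive at a stage when it stood in the Low, Medium or High list of a replicate, and overlapping fragments of all 40 lists were merged into regions. Of 75060 regions, 63070 held a positive fragment at some stage and 30863 held one at ES or HB in either replicate. There were 16529 such regions in replicate 1 and 16461 in replicate 2, and 2127 were common to both. A region was called kept when positive at both stages, gained when positive at HB alone and lost when positive at ES alone, in each replicate apart.

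Mouse HM-1 ES cells, a line of 129/ola origin, carried 1 cloned open-chromatin fragment each at the repaired Hprt locus, in front of the Hsp68 minimal promoter and Venus-YFP. ES and HB cells of the same transfected pool shared this design. HB cells were FLK1+ cells purified on magnetic beads from embryoid bodies grown in serum culture for about 3 days, and ES cells were the undifferentiated pool. Each stage was sorted by YFP into Negative, Low, Medium and High cells in 2 replicates, which gave 16 libraries for these stages. Nothing stated that the replicates came from separate starting cultures, and no gene expression was measured in these lists, so that the stage labels could not be checked against marker genes such as Pou5f1 or Kdr.

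ES cells are pluripotent and are held in that state by factors such as OCT4, SOX2, KLF4 and ESRRB. Hemangioblasts are mesodermal cells that can form heart, endothelium and blood, and GATA, ETS and E-box binding factors are central to that fate. Enhancers are DNA elements that raise transcription from a distance, and in this assay every fragment was read at the same locus, away from its native site.

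Example sequences show what was being compared. The windows below are the 200 bp with most positive fragment sequence in leading regions of each kind, on the plus strand of mm10 (GRCm38), and motif matches would stand in capitals. The gained window lay near Cdk3 (chr11:116218805-116219004, intron). The lost windows lay near Cln6 (chr9:62828850-62829049, intergenic) and Glis2 (chr16:4586805-4587004, intergenic). The kept window lay near Zmiz2 (chr11:6389084-6389283, intergenic).
Cdk3, gained: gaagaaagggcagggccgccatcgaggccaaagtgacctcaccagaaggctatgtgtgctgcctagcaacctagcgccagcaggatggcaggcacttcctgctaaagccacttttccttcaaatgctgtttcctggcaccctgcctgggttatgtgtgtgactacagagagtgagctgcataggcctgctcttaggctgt
Cln6, lost: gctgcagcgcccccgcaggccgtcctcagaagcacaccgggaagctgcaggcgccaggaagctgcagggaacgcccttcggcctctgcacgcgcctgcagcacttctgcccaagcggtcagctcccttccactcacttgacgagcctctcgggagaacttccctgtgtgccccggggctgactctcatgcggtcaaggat
Glis2, lost: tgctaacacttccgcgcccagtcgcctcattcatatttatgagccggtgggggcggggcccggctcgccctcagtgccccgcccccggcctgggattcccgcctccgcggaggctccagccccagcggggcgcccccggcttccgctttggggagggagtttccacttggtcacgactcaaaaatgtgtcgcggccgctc
Zmiz2, kept: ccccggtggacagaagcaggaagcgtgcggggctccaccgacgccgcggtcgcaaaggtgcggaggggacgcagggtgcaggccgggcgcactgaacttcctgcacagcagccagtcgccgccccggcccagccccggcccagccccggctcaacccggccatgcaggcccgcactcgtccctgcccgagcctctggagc
These 4 windows held none of the 14 motifs searched, and they do not stand for their classes. The full regions did hold matches, with E-box and RUNX near Cdk3, TEAD near Cln6, E-box near Glis2 and SOX near Zmiz2. Over all 75060 regions, AP-1 matches (TGACTCA) stood in 9.80% and E-box matches (CAGCTG) in 20.1%. The GC content of the 4 windows ran from 55.5% at Cdk3 to 75% at Zmiz2.

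The replicates differed in depth and in content, which bears on every result. Replicate 1 held 27717 positive fragments at ES and 38953 at HB, and replicate 2 held 9020 and 12209. Positive fragments averaged 56.9% GC at ES and 56.8% at HB in replicate 1, against 50.0% and 50.2% in replicate 2. Pairs of ES and HB libraries shared 1.66% to 4.49% of the fragments of the smaller list in replicate 1 and 9.67% to 34.1% in replicate 2. The ES Medium library of replicate 2 stood apart, since 2828 of its fragments, or 65.5% of the smaller list, were also in HE1 Low of that replicate, and its fragments were longer, with a median of 309 bp against 183 to 222 bp in the other positive ES and HB libraries of replicate 2. HE1 Low of replicate 2 held 31915 fragments, against 1413 to 2773 in the other HE1 lists of that replicate. HB lists of replicate 2 also shared much with it, 45.9% of the smaller list for HB Low and 41.0% for HB Medium. Results of replicate 2 that move with ES Medium are given without it too. The HB lists were not left out in turn, so that this alternative treats the stages unequally. The methods describe a restriction to fragments within open chromatin of the matching stage, and whether the deposited lists had passed it was not given in the sources used here. Its part in the results was not tested.

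Most positive regions differed between ES and HB. With the larger positive set thinned to the smaller, 36.2% of the 15442 positive regions of replicate 1 were kept, 33.5% were gained and 30.3% were lost. In replicate 2, 13.2% of 14330 regions were kept, 44.7% gained and 42.0% lost. Without the ES Medium library, 6.35% were kept in replicate 2. The mean over replicates was 24.7% ± 16.2 kept, 39.1% ± 7.95 gained and 36.2% ± 8.29 lost (SD, n = 2), so that gain and loss differed by less than the spread between replicates. As deposited, without thinning, the classes held 6125 kept (37.1%), 6260 gained (37.9%) and 4144 lost regions (25.1%) in replicate 1, and 2455 kept (14.9%), 8542 gained (51.9%) and 5464 lost (33.2%) in replicate 2. No test across 2 replicates could reach a threshold, since the smallest exact permutation p was 0.5.

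**Figure D1:**
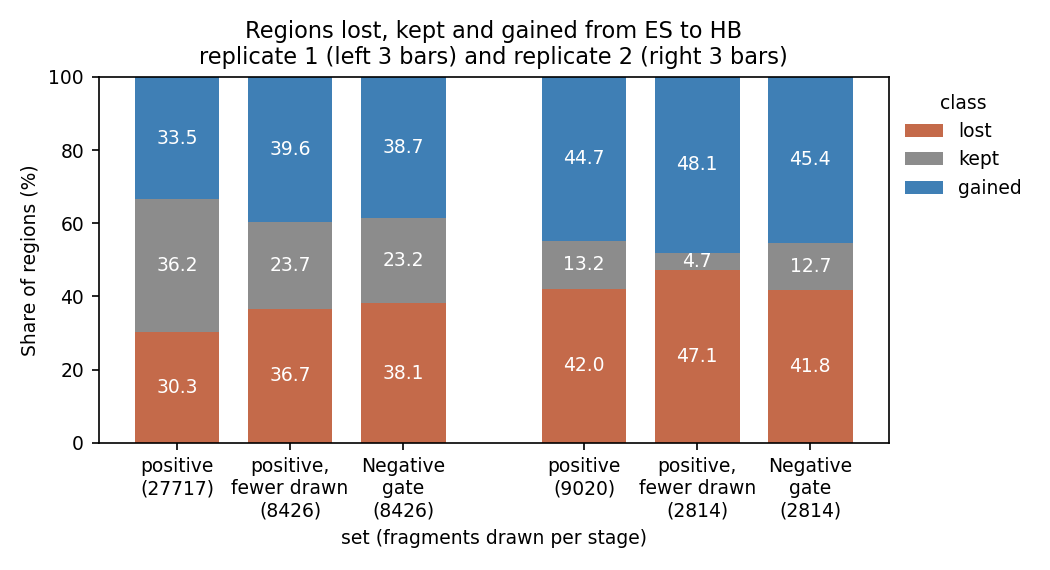
Share of regions (%) lost, kept and gained from ES to HB for the positive sets, for the positive sets thinned to the size of the Negative lists and for the Negative lists, in replicate 1 (left) and replicate 2 (right). At equal size, 23.7% of positive and 23.2% of Negative regions were kept in replicate 1, against 4.74% and 12.7% in replicate 2.

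Fragments of the Negative gate, from cells without reporter signal, also differed between the stages. When the positive sets were thinned to the 8426 fragments of the Negative comparison in replicate 1, 23.7% of positive regions were kept, against 23.2% of Negative regions. In replicate 2, at 2814 fragments, 4.74% of positive and 12.7% of Negative regions were kept, and 3.43% of positive regions without ES Medium. At equal depth, positive and Negative regions were thus kept at close shares in replicate 1, and positive regions were kept less in replicate 2, where the difference was not tested.

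Compared with the other stage pairs, ES and HB shared an intermediate part of their regions in replicate 1. At 27717 fragments per stage in replicate 1 they shared 36.2% of their regions, rank 5 of 10 pairs, above ES with HE2 (26.9%) or HP (29.2%). HE1 and HE2, the hemogenic endothelium stages, shared most (47.5%), and HP is the hematopoietic progenitor stage. In replicate 2, at 3471 fragments, ES and HB shared 5.66%, again rank 5, below ES with HE1 (6.32%) and ES with HE2 (8.15%). Without ES Medium they shared 4.10% and ranked 7, above ES with HE1 (3.23%) and below ES with HE2 (8.74%).

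In replicate 1, libraries of the same stage shared more regions than libraries of different stages. In replicate 1, at 7468 fragments per library, 2 libraries of a stage shared 28.8% of their regions on average and an ES and an HB library 22.1%. This difference of 6.74 percentage points was the largest that the 70 arrangements of stage labels over the 8 libraries gave (exact permutation test, one-sided p = 0.0286, the smallest p that they allow). In replicate 2, at 1763 fragments, the shares were 5.72% and 4.78% (p = 0.114, exact permutation test), and 5.76% and 4.47% without ES Medium (p = 0.114, exact permutation test). Identical fragments were shared in 22.4% within a stage and 17.9% between stages in replicate 2 (p = 0.0286, exact permutation test), and in 22.8% and 15.9% without ES Medium. The 4 gates of a stage were sorted from 1 culture, so this compares cultures and not independent replicates of a stage.

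Across replicates no such likeness by stage was seen. At 9020 fragments, positive regions of ES shared 4.45% between replicates and those of HB 4.42%. ES of replicate 1 shared 4.23% with HB of replicate 2, and HB of replicate 1 shared 4.49% with ES of replicate 2. The same-stage mean of 4.43% and the other-stage mean of 4.36% differed by 0.0744 percentage points, which was less than the gap between the 2 other-stage pairs.

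Gain and loss in 1 replicate told little about the other. Of the 568 regions gained in replicate 1 and positive at either stage in replicate 2, 282 were gained there too (49.6%, Wilson 95% interval 45.6% to 53.7%). Of the regions positive in both replicates, 47.2% were gained in replicate 2, and of all regions of replicate 2, 51.9% were gained. Among the 308 regions lost in replicate 1, 105 were lost again (34.1%, 29.0% to 39.6%). This stood beside 30.8% of regions positive in both replicates and 33.2% over all. After thinning, 42.9% of regions gained in replicate 1 were gained again (38.3% to 47.6%), beside 40.4% of regions positive in both replicates and 44.7% over all. The recurrence shares of gained and lost regions lay above those of regions positive in both replicates, which lay inside their intervals. Of the regions kept in replicate 1, 24.4% were kept in replicate 2 (22.1% to 26.8%), against 17.8% of those gained (14.9% to 21.1%) and 19.8% of those lost in replicate 1 (15.7% to 24.6%). The interval for kept regions lay above that for gained regions and overlapped that for lost regions. These intervals cover counting error only.

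A region absent from the positive lists of a stage was seldom seen among its Negative fragments. In replicate 1, 8.59% of gained regions held an ES Negative fragment and 27.3% an HB Negative fragment. Lost regions mirrored this, with 26.2% holding an ES Negative and 7.42% an HB Negative fragment. Kept regions held them most often (56.8% and 46.9%). In replicate 2 the values were 4.87% and 6.93% for gained, 7.24% and 5.06% for lost and 18.3% and 24.0% for kept regions. Most gained regions were thus not recorded at ES in any gate, and a change of reporter activity could not be told apart from absence of the fragment from the ES lists.

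Where a region was recorded at both stages, in whatever gate, it was mostly positive at both. Of the 6873 such regions in replicate 1, 6125 were kept (89.1%), 516 were Negative at ES and positive at HB (7.51%) and 190 changed the other way (2.76%). Of the 3127 in replicate 2, 2455 were kept (78.5%), 410 gained (13.1%) and 178 lost (5.69%). Without ES Medium there were 1934, of which 62.7% were kept, 26.1% gained and 6.36% lost. Positive stood for the Low, Medium and High lists together and Negative for a single list, and a region in both kinds counted as positive. A high share positive at both thus follows in part from the definition, and no expected share was computed. Identical fragments were counted in the same way. Of 2326 fragments recorded at both stages in replicate 1, 1529 were positive at both (65.7%), 429 went from Negative at ES to positive at HB (18.4%) and 273 from positive to Negative (11.7%). In replicate 2, of 3200 identical fragments, 2458 were positive at both, 453 became positive (14.2%) and 179 became Negative (5.59%). Without ES Medium 545 of 1935 became positive (28.2%) and 125 became Negative (6.46%). Leaving out ES Medium makes its members that also stood in ES Negative count as Negative at ES, unless Low or High held them. The higher shares from Negative to positive without it thus rest in part on members that were positive at ES. A change from Negative to positive was the more frequent one in both replicates. The lists as a whole also held more positive fragments at HB than at ES, and the part of that difference was not tested.

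The number of positive fragments in each region was then compared between the stages. An exact Cochran-Mantel-Haenszel test with the replicate as stratum was run on the 1637 regions with at least 10 positive fragments, with Benjamini-Hochberg adjustment. It called 60 regions with more fragments at HB (3.67% of those tested) and 31 with fewer (1.89%). At an unadjusted p under 0.05 there were 137 and 93. The same test on the Negative gate called 1 of 164 regions with more and 4 with fewer.

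**Figure D2:**
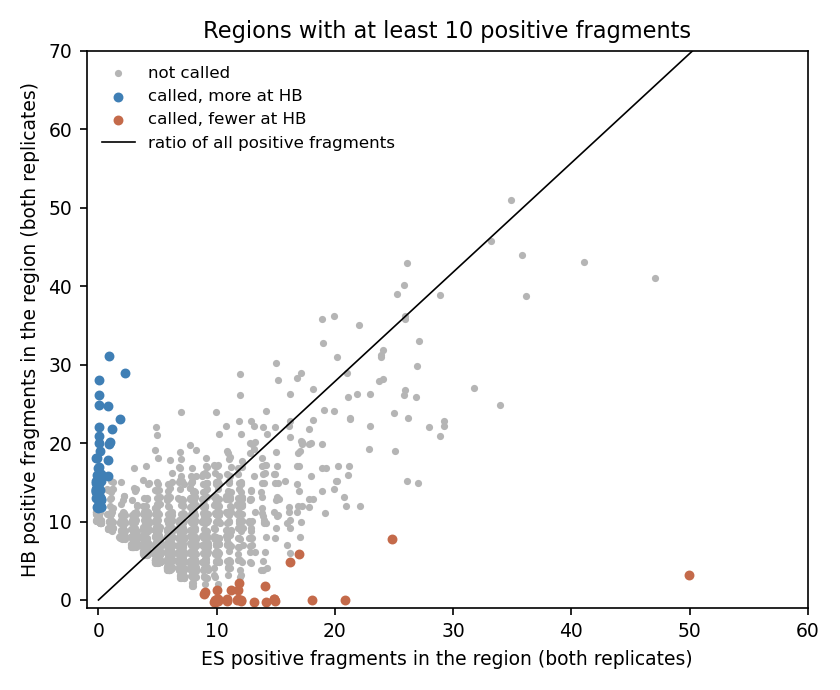
ES against HB positive fragments (number per region, both replicates summed) for the 1637 tested regions, with small random offsets so that points do not hide each other. The 60 regions called with more at HB lie along the left axis at 0 to 2 ES fragments, and the 31 called with fewer lie low, at 0 to 8 HB fragments.

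Most called regions were all or none in replicate 1. All 60 regions with more at HB had 0 ES fragments of any gate in that replicate, Negative included, and 26 of the 31 with fewer had 0 HB fragments of any gate. The test favoured such zeros among positive fragments. A region with 0 and 10 positive fragments in replicate 1, and 0 and 1 in replicate 2, did not pass (adjusted p = 0.055, exact test). The zeros of the positive lists are thus in part a condition of the call, while those of the Negative lists were not used by it. Over all regions with at least 10 fragments of any gate in replicate 1, 191 of 2250 (8.49%) had 0 at ES and 42 (1.87%) had 0 at HB. Whether the restriction to open chromatin of the matching stage had a part in these zeros was not tested. In replicate 2, 13 of the 60 regions did hold an ES fragment and 9 of the 31 an HB fragment. The calls rested on replicate 1, since 43 of the 60 and 17 of the 31 held no positive fragment in replicate 2. A single call, near Cryz, rested on replicate 2 alone, with 15 HB fragments and 0 at ES, and is named here for that, having been chosen after its values were seen. In the regions called from replicate 1 alone, replicate 2 showed no shift in the called direction for those with more at HB. The 84 called with more at HB held 30 ES and 26 HB positive fragments in replicate 2, an HB share of 46.4% (Wilson 95% interval 34.0% to 59.3%), and the 29 called with fewer held 14 and 9 (39.1%, 22.2% to 59.2%), beside 57.5% over all fragments of replicate 2.

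The regions with the lowest p among those with more at HB lay near genes of varied function. The region near Zfp608, a zinc finger gene (chr18:55106869-55107618, intergenic), held 0 and 27 fragments at ES and HB in replicate 1 and 0 and 1 in replicate 2 (adjusted p = 2.04e-04 by the exact Cochran-Mantel-Haenszel test). At Peg3, an imprinted zinc finger gene (chr7:6728299-6729022, intron), they were 0 and 26 in replicate 1 and 0 and 0 in replicate 2, where 2 ES Negative fragments and 1 HB Negative fragment were recorded (adjusted p = 3.06e-04, exact test). At Slc38a10, of an amino acid transporter family (chr11:120142198-120143208, intron), replicate 1 gave 0 and 29 and replicate 2 gave 1 and 2. Prpf40b, a splicing factor gene (chr15:99332693-99333773, intron), gave 0 and 25 and nothing in replicate 2. Tspan9, a tetraspanin gene (chr6:128102421-128103470, intron), gave 0 and 22 and nothing in replicate 2 (adjusted p = 0.00127, exact test). All 5 were positive at HE1, HE2 and HP in replicate 1, with 22 to 52 fragments at HE1.

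The regions with fewer fragments at HB were led by Phf19, a Polycomb-associated gene (chr2:34904620-34905546, intron). It held 50 fragments at ES and 0 at HB in replicate 1, and 0 and 3 in replicate 2, the opposite order (adjusted p = 7.23e-13, exact test). In replicate 1 the ES fragments were 24 Low, 10 Medium and 17 High, 1 fragment being in more than 1 gate, with 21 more in the Negative list, and the HB Negative list held 0. The same region then held 92 positive fragments at HE1, 47 at HE2 and 0 at HP. Pex2, a peroxisome assembly gene (chr3:5860393-5860823), gave 21 and 0 in replicate 1, and 36, 22 and 0 at HE1, HE2 and HP. Cln6, a gene of an endoplasmic reticulum protein, gave 17 and 0, with 1 ES fragment in replicate 2, and 34, 24 and 0 later. Trappc9, of a vesicle tethering complex (chr15:73067232-73068049), gave 15 and 0, then 39, 24 and 0. All 31 called regions were also positive at HE1 and at HE2 in replicate 1, and 14 at HP. Of the 60 with more at HB, 57 were positive at HE1, 57 at HE2 and 58 at HP. The share over all tested regions was not computed, so these counts stand without their baseline. Of the kept regions of replicate 1, with no minimum of 10 fragments, 83.9% were positive at HE1, 81.5% at HE2 and 76.3% at HP.

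A small set was in the same class in both replicates. There were 282 regions gained in both, 105 lost in both and 305 positive at both stages in both. They made up 49.6%, 34.1% and 24.4% of the replicate 1 class, among regions also positive in replicate 2. Of all regions positive in both replicates, 47.2% were gained, 30.8% lost and 22.0% kept in replicate 2. The numbers gained or lost in both thus lay near these shares. Regions named further below as gained or lost in both belong to these sets. In 84 of the 282 and 44 of the 105 the call stood on 1 fragment per replicate. Besides Zfp608, the gained set was led by Cdk3, a cyclin-dependent kinase gene, with 16 HB fragments in replicate 1 and 1 in replicate 2. The region near Hoxb1, a homeobox gene whose start site lay 34245 bp away, had 14 and 1, and those near Dda1 and Dock6, a guanine exchange factor gene, had 13 and 1 each. All held 0 at ES in both replicates, as the class requires, and all 5 passed the exact test. They were chosen by the same counts that the test used, so that passing adds no support. With the asymptotic test the regions near Cdk3 (adjusted p = 0.051), Hoxb1 (0.0736), Dda1 and Dock6 (0.0874 each) did not pass, nor did Cdk3 and Hoxb1 (0.0841 each) and Dda1 (0.202) in the exact test with Medium and High alone. The latter 4 were positive at HE1, HE2 and HP in replicate 1, with 24 to 67 fragments at HE1. The lost set was led by Cln6, followed by Glis2, a zinc finger gene, with 14 ES fragments in replicate 1 and 1 in replicate 2. Dnajb12, a chaperone gene, had 13 and 1, Rbx1, a cullin ligase subunit gene, had 12 and 1, and Jade2, a gene of a histone acetylation complex, had 9 and 2. All 5 passed the test, which again used the counts they were chosen by. All but Jade2, with 1 fragment, were at 0 at HP in replicate 1.

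The regions positive at both stages in both replicates that are named here were among those with most fragments, so their richness follows from the choice. The region near Zmiz2, a transcriptional coactivator gene, held 35 and 42 fragments at ES and HB in replicate 1 and 1 and 2 in replicate 2. Near Mier3 they were 32 and 45, then 1 and 1. The region near Zfp958 (chr8:4677379-4678693) was the richest of those named here in replicate 2, with 31 and 34 fragments, then 5 and 5. At Chd2, a chromatin remodeller gene (chr7:73537540-73538396, intron), they were 23 and 42, then 3 and 1. Every one of these 4 also held Negative fragments at both stages in both replicates. None passed the test, which used the counts they were chosen by.

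Gained regions of replicate 1 were more often positive later than lost ones. They were positive in 54.1% at HE1, 51.5% at HE2 and 44.6% at HP, against 37.8%, 33.2% and 24.2% of lost regions and 83.9%, 81.5% and 76.3% of kept regions. Among regions with 1 positive fragment at ES and HB together, 42.4% of gained and 27.9% of lost regions were positive at a later stage. Replicate 2 gave another order at HE1, with 16.8% of gained and 29.6% of lost regions, while HE2 gave 8.43% and 8.49% and HP gave 6.88% and 5.28%. Lost regions of replicate 2 include the ES Medium fragments that HE1 Low also held. Without that library 30.6% of gained and 26.5% of lost regions were positive at some later stage, against 20.4% and 33.7% with it.

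**Figure D3:**
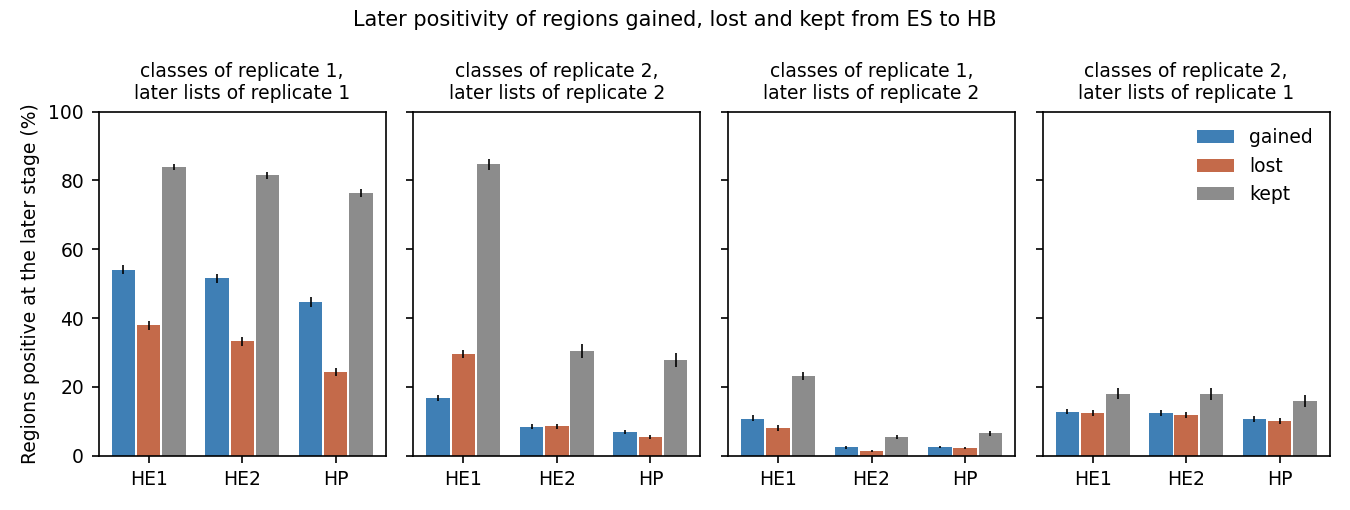
Regions positive at HE1, HE2 and HP (%), for regions gained, lost and kept from ES to HB, with later lists of the same replicate (left panels) and of the other replicate (right panels); error bars are Wilson 95% intervals. Gained exceeded lost in replicate 1, as at HP with 44.6% and 24.2%, and kept regions were highest in every panel.

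In the later lists of the other replicate the gap between gained and lost was small. Of the regions gained in replicate 1, 13.1% were positive at any later stage of replicate 2 (12.2% to 14.1%), against 9.81% of lost regions (8.99% to 10.7%) and 27.1% of kept regions. For classes of replicate 2 in the lists of replicate 1 the shares were 14.3% (13.4% to 15.2%), 13.9% (13.0% to 14.7%) and 19.9%.

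The strength of the reporter signal did not set gained or lost regions apart in replicate 1. There the High gate gave 40.4% of HB fragments in gained regions, beside 40.9% of all positive HB fragments, and 37.0% of ES fragments in lost regions, beside 36.8% of all at ES. In replicate 2 it gave 45.8% in gained regions, beside 40.5%, and 49.3% in lost regions, beside 42.5%. Without ES Medium, which leaves Low (1763 fragments) and High (4487 fragments) at ES, the share in lost regions was 73.7%. Most of the remaining ES fragments were thus High. Their share over all of them was not computed, so that 73.7% cannot be set against 42.5%. Kept regions of replicate 2 drew on other gates, with 57.2% of their ES fragments from Medium and 44.4% of their HB fragments from Low, and these libraries shared 65.5% and 45.9% of the smaller list with HE1 Low.

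Among the motifs searched, GATA had the largest difference in replicate 1. Fragments with AGATAAG, searched on both strands as all motifs were, made up 2.05% of positive fragments at ES and 4.12% at HB in replicate 1, and 3.79% and 3.28% in replicate 2. Without ES Medium the replicate 2 shares were 3.01% and 3.28%, so that its lower share at HB rested on that library. By library, ES of replicate 1 held 1.98% in Low, 2.02% in Medium and 2.10% in High, and HB held 4.78%, 4.19% and 3.65%. All HB libraries lay above all ES libraries there. The Negative lists held 2.08% and 4.89%, a difference at least as large. In replicate 2 ES held 3.57%, 4.75% and 2.72% in Low, Medium and High and HB held 3.92%, 3.39% and 3.09%, so that the stages overlapped. The Negative lists of that replicate held 2.95% and 3.96%. Over 6 pairs of libraries matched by gate and replicate, 5 were higher at HB, all but the Medium pair of replicate 2. The mean difference of 0.98 percentage points ± 1.5 (SD) did not pass (exact permutation test, adjusted p = 0.365). The gates of a stage were sorted from 1 culture in each replicate, so these pairs are not independent.

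The GATA difference was also seen between classes of regions in replicate 1. A match stood in 12.8% of gained, 4.00% of lost and 7.17% of kept regions. It stood in 8.09% of these 3 classes together and in 5.91% of all regions of the series. Among regions 150 to 350 bp wide, where width differed less, the shares were 6.53%, 2.67% and 2.49%, beside 4.20% of the classes together. In replicate 2 they were 4.01%, 4.41% and 6.04% over all widths, beside 4.44% of the classes together. At 150 to 350 bp they were 3.60%, 3.45% and 3.59%, beside 3.53%. Without ES Medium gained regions held 4.35% and lost regions 4.14% over all widths. The E-box CAGCTG, bound by TAL1-type factors, was in 32.3% of gained and 23.6% of lost regions in replicate 1 and in 16.9% and 17.5% in replicate 2. At 150 to 350 bp these were 21.3% and 17.7%, then 14.9% and 14.2%, so that the order in replicate 2 turned with width, as it did without ES Medium (17.7% and 17.0%). The OCT motif ATGCAAAT was in 1.90% of gained and 2.60% of lost regions in replicate 1 and in 1.16% and 1.71% in replicate 2.

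Some motifs were lower at HB in both replicates, although none passed the test and most of the replicate 2 differences shrank or turned without ES Medium. Fragments with the TEAD motif GGAATG went from 11.9% to 10.5% in replicate 1 and from 14.2% to 12.7% in replicate 2, where ES was 12.7% as well without ES Medium, a difference of -0.0442 percentage points. The Negative lists went from 11.7% to 10.5% and from 16.2% to 13.1%. All 6 library pairs were lower at HB for TEAD, and likewise for KLF (GGGTGTGG) and ESRRB (TCAAGGTCA). After adjustment over 14 motifs none passed (exact permutation test, adjusted p = 0.146 for each). Each of these motifs had the smallest exact permutation p that 6 pairs allow, 0.03125. That p could pass the adjustment only if most of the 14 motifs reached it, so this test could hardly decide. KLF went from 2.91% to 2.60% and from 2.77% to 2.26%, and ESRRB from 0.354% to 0.282% and from 0.610% to 0.524%. Without ES Medium the replicate 2 differences were -0.291 for KLF and -0.058 for ESRRB. AP-1 (TGACTCA) went from 7.46% to 6.10% and from 5.93% to 5.51%, but from 5.31% to 5.51% without ES Medium. The median fragment length was 176 bp at HB and 184 bp at ES in replicate 1, and 196 and 221 bp in replicate 2. Without ES Medium it was 196 and 195 bp there. In the central 100 bp of each fragment, which sets length aside, the mean TEAD difference was -0.0959 percentage points instead of -1.44, and the GATA difference was 0.721 instead of 0.775.

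**Figure D4:**
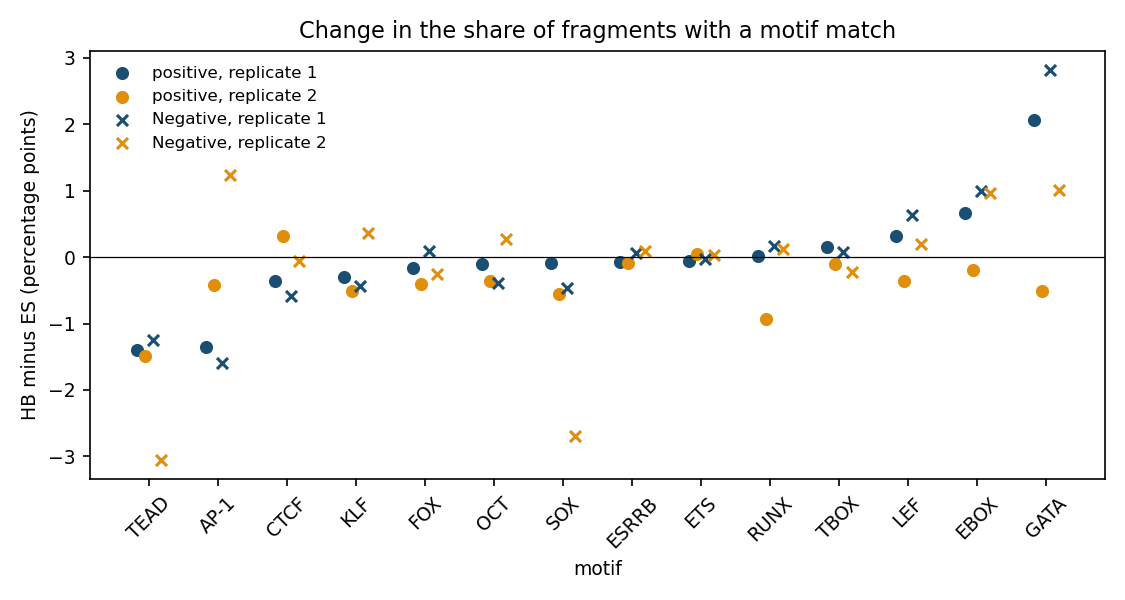
HB minus ES difference in the share of fragments with a motif match (percentage points) for 14 motifs, positive fragments as circles and Negative lists as crosses, replicate 1 in blue and replicate 2 in orange. GATA stands out in replicate 1, at 2.07 for positive and 2.81 for Negative fragments, and is at -0.52 for positive fragments of replicate 2 with all libraries and 0.263 without its ES Medium library.

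The other motifs searched were SOX (ACAATGG), ETS (ACCGGAAGT), T-box (AGGTGTGA), FOX (TGTTTAC), LEF (ATCAAAG), RUNX (TGTGGTT) and the CTCF consensus. With those named above, these complete the 14. SOX (-0.0864 and -0.553 percentage points) and FOX (-0.168 and -0.403) were lower at HB in both replicates. Without ES Medium their replicate 2 differences were 0.0266 and 0.164. The rest moved little or not alike. RUNX was 3.42% and 3.44% in replicate 1 and 5.63% and 4.69% in replicate 2. CTCF, the insulator protein, marked kept regions of replicate 1, with matches in 15.7% of kept, 6.95% of gained and 6.70% of lost regions, and 14.9%, 4.75% and 3.81% at a width of 150 to 350 bp. In replicate 2 the shares were 2.72%, 2.53% and 2.02% over all widths and 0.803%, 0.966% and 0.689% at that width, where kept was not highest. Kept regions were also wider (653 bp in the median, against 418 bp for gained and 297 bp for lost in replicate 1) and nearer to start sites (15334 bp against 20162 and 21506 bp). The centres of positive fragments were intronic in 39.5% at ES and 41.5% at HB in replicate 1 and in 45.6% and 45.5% in replicate 2. Mean GC differed by -0.0941 and 0.235 percentage points.

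Regions at the loci of known developmental genes were counted next, over each gene and 25000 bp either side, and without a test. A region at a locus could thus lie nearest the start site of another gene. Of the 30 pluripotency genes, 27 had a positive region in replicate 1 and 20 in replicate 2. Over their loci 27.6% of regions were gained and 39.7% lost in replicate 1, beside 33.5% and 30.3% over all regions, and 47.0% and 39.1% in replicate 2, beside 44.7% and 42.0%. The loci of 32 hemangioblast and endothelial genes gave 41.1% gained and 28.5% lost in replicate 1 and 50.7% and 36.6% in replicate 2, so that gain exceeded the share over all regions in both. With at least 2 fragments for a positive region this held in replicate 1 (45.5%, beside 35.2% over all) and turned in replicate 2 (12%, beside 36.8%). Blood genes gave 40.4% gained and 19.1% lost, then 41.7% and 36.6%. Each list rested on 30.2 to 80.6 regions per replicate, as the mean over thinning draws.

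**Figure D5:**
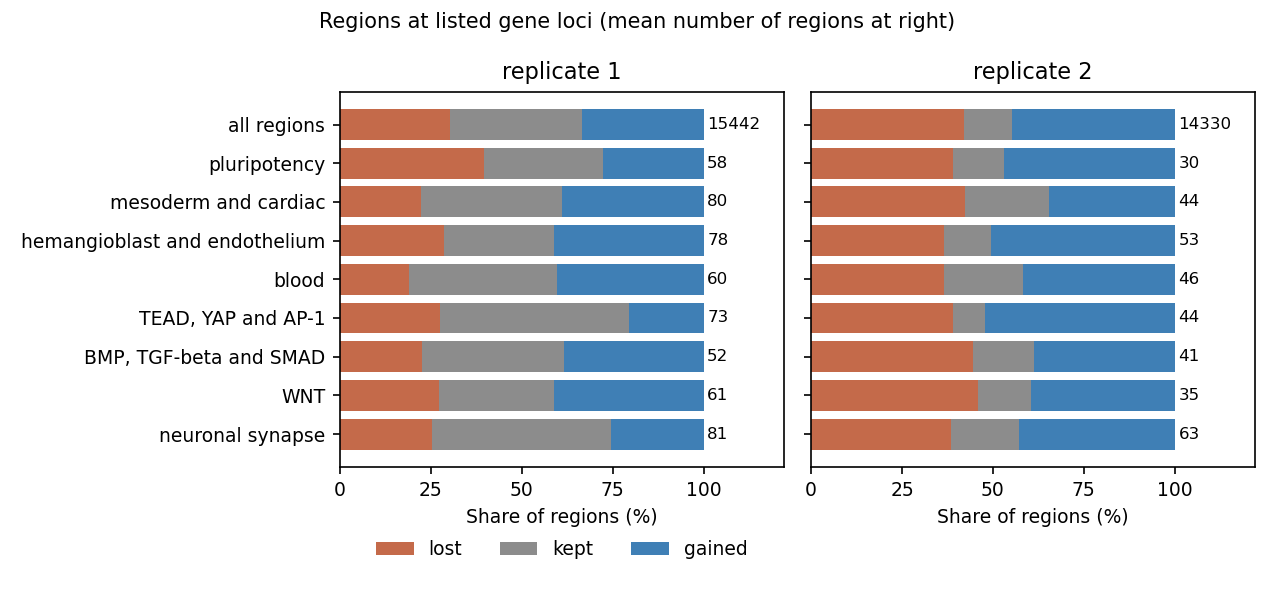
Share of regions (%) lost, kept and gained from ES to HB at the loci of 8 gene lists and over all regions, for replicate 1 (left) and replicate 2 (right), with the mean number of regions at the right of each bar. Hemangioblast and endothelial loci had 41.1% and 50.7% gained, and pluripotency loci 27.6% and 47.0%.

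Of the remaining lists, only neuronal synapse loci lay on the same side of the gained share over all regions in both replicates. Mesoderm and cardiac loci gave 38.8% gained and 22.3% lost in replicate 1 and 34.5% and 42.4% in replicate 2. Loci of TEAD, YAP and AP-1 genes were mostly kept in replicate 1 (52.0% kept, 20.4% gained) and mostly gained in replicate 2 (8.78% kept, 52.1% gained). BMP, TGF-beta and SMAD loci gave 38.3% and 38.7% gained and WNT loci 41.0% and 39.6%. Neuronal synapse loci, an off-lineage set, gave 25.6% and 42.9%, below the 33.5% and 44.7% over all regions. With at least 2 fragments for a positive region they gave 35.4% and 36.3%, beside 35.2% and 36.8%. The kept share at synapse loci (49.1% and 18.6%) lay above that over all regions (36.2% and 13.2%) in both replicates. So did that at mesoderm (38.8% and 23.2%) and BMP loci (39.2% and 16.7%).

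Among endothelial loci, 2 regions passed the test of the 16 tested, both with more at HB, beside 3.67% of all tested regions. Upstream of Egfl7, a secreted endothelial factor gene, a region (chr2:26571627-26572461) held 0 and 15 fragments at ES and HB in replicate 1 and none in replicate 2, with 2 ES Negative fragments (adjusted p = 0.0106, exact test). Near Ramp2, a receptor partner needed for vessels, a region whose nearest start site was that of Ezh1 (chr11:101231876-101232816) held 0 and 11, then 0 and 1 (adjusted p = 0.0387, exact test). At Sox7, an endothelial SOX factor gene, a region (chr14:63957541-63958427) held 0 and 7, then 0 and 1, and was gained in both replicates with too few fragments for the test. The Sox7 locus as a whole held 0 ES fragments and 10 HB fragments. Notch1 held 2 regions gained in both and Nrp1 held 1. The loci with most fragments were Nrp2, a semaphorin and VEGF co-receptor gene, with 23 and 28, then 0 and 0, Notch1 with 8 and 23, then 10 and 6, and Egfl7 with 6 and 32, then 1 and 2.

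Of the 14 blood regions tested 1 passed, with more at HB, beside 3.67% of all tested regions, and 1 call among so few sets the list apart in no way. In an intron of Vav1, a blood cell signalling gene, a region (chr17:57289979-57291088) held 0 and 18 fragments in replicate 1 and none in replicate 2 (adjusted p = 0.0068, exact test). The single region of Myb, a progenitor transcription factor gene (chr10:21144824-21145597, exon), held 0 and 4, then 0 and 1, and was gained in both, although 2 ES Negative fragments lay in it. Itga2b, which encodes CD41, held 24 and 34, then 3 and 4 fragments over its locus, and Sting1, an innate immune adaptor gene, held 19 and 29, then 3 and 3.

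At pluripotency loci none of the 3 tested regions passed, too few to set against the 3.67% and 1.89% over all. Jarid2, a Polycomb partner, held 15 and 13, then 3 and 3 fragments. Esrrb, a nuclear receptor of the ES state, held 9 and 16, then 3 and 4. Klf4 held 8 and 9, then 0 and 2. A region near Dnmt3l, a DNA methylation cofactor gene (chr10:78067531-78067901), was lost in both replicates with 1 fragment each, and a region at the Fgf4 locus whose nearest start site was that of Fgf15 (chr7:144888995-144889269) was gained in both with 1 each. It also held an ES Negative fragment.

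Mesoderm loci had no called region among 12 tested, beside 3.67% with more and 1.89% with fewer over all. Gata4, a cardiac and endodermal GATA factor gene, held 3 and 14 fragments in replicate 1 and 5 and 5 in replicate 2, with a region 2413 bp upstream (chr14:63247230-63248138) at 0 and 3, then 0 and 1. A region between Mesp1 and Mesp2, genes of early mesoderm (chr7:79797272-79797723), held 0 and 1 in both replicates. Nodal, a mesoderm-inducing ligand gene, held 1 region gained in both. Meis1 held 18 and 29, then 3 and 5, and Foxc2 held 14 and 22, then 1 and 5.

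Signalling loci showed both directions. At Smurf1, a ubiquitin ligase of the BMP and TGF-beta pathway, an intronic region (chr5:144898484-144899088) held 12 and 0 fragments in replicate 1 and none in replicate 2 (adjusted p = 0.00218, exact test), while another Smurf1 region (chr5:144963610-144964327) held 0 and 5, then 0 and 1. It was the only called one of 13 tested at these loci, beside 1.89% with fewer and 3.67% with more over all. Smad6, an inhibitory SMAD gene, held 13 and 41, then 7 and 5 over its locus, and its leading region gave 0 and 13, then 1 and 1 (adjusted p = 0.0769, exact test). Tgfb1 held 14 and 21, then 4 and 3, and Smad7 held 16 and 13, then 3 and 4. Id3 and Acvr2b held 1 region each gained in both replicates, with the start sites of E2f2 and Exog nearest. Among WNT genes Tcf7l1 held 8 and 14, then 3 and 2, Wnt3a held 6 and 12, then 1 and 4, and Wnt11 held 7 and 11, then 1 and 2.

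Among loci of AP-1 and TEAD genes and of synapse genes, those with most fragments held them at both stages. Fos held 43 and 67, then 2 and 2, Junb held 32 and 39, then 4 and 3, and Tead3 held 13 and 39, then 0 and 3, with 0 called of 16 tested, beside 3.67% and 1.89% over all. A region 3214 bp upstream of Fosl2 (chr5:32132888-32133627) held 0 and 3 in both replicates and had the most replicate 2 fragments of the regions gained in both at the listed loci. Junb and Fosb held 1 region each gained in both, with the start sites of Rtbdn and Rtn2 nearest. Among synapse genes Cacna1a held 59 and 50, then 7 and 7, Shank1 held 48 and 57, then 2 and 2, and Nrxn2 held 14 and 17, then 1 and 5. A region nearest the start site of Clec11a gave 35 and 51 of the Shank1 fragments in replicate 1. The Cacna1a region with most fragments was nearest the start site of Ier2. Grin1 held 1 region gained in both, and 0 of 12 tested regions passed, beside the same shares over all.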

How the data were processed

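The data were 40 lists of reporter fragments from HM-1 cells, of which 16 were ES or HB libraries, grouped by stage, gate and replicate from the sample titles. The authors trimmed reads (Trim Galore), aligned them to mm10 (Bowtie2), filtered pairs at a mapping quality over 40 (SAMtools) and removed background fragments (bedtools), with HOMER for annotation. Tool versions for this step: not given in the sources used here. The deposited values are coordinates of unique fragments, with no read counts or scores, so that depth is the number of fragments (1763 to 16343 per ES or HB library), and intervals cover counting error only.

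Regions, thinning (mean of 20 seeded draws), Wilson 95% intervals and the exact test per region were computed in Python 3.11.15 with numpy 2.4.6, pandas 2.3.3, scipy 1.17.1 and pysam 0.24.0. limma 3.58.1 on log2(CPM + 1) of fragment numbers was an alternative. The test was tested on simulated data, where at the real depth it missed most regions with a rise and found falls of the same size more often, so that its counts in the 2 directions are not on a par. Gene names and start sites came from RefSeq on GRCm38, the assembly of mm10, and sequences from that assembly. The replicate numbers pair the samples, since both stages of a replicate came from 1 transfected pool per the methods. Deviations of ES and HB from their stage means correlated over the 1637 tested regions (r = 0.307, a description). P-values of the exact test per region cover counting error of fragments within 2 replicates, and no variation between replicates or cultures. Regions were named by lowest p (5 per direction) and by most fragments among those gained, lost or kept in both replicates (5 each). Some regions and sequences that this rule names are not reported here. Genes were named by most fragments (3 per list), by a called region or by one gained or lost in both replicates. Members, motifs and lists were chosen with earlier results of these data known.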

Additional observations from a re-analysis of the deposited data

How the results depend on the processing

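Alternatives changed the region counts most. Beside 60 regions with more and 31 with fewer at HB, pooling the replicates without the replicate block gave 60 and 31. limma called 0 and 0 with the replicate block (21 regions at an unadjusted p under 0.05) and 0 and 0 without it (0 regions). limma also made no call on simulated data of this size with known changes, so its counts say nothing on whether the calls hold. The asymptotic test called 13 with more, at least 20 fragments gave 13 and 4, Medium and High alone 12 and 12, and the Negative gate 1 and 4. Leaving out a replicate gave 1 to 84 with more and 0 to 29 with fewer, and without replicate 1 only 17 regions could be tested. The ratio of observed to expected HB fragments near Mier3 went to 1.00 when pooled or without replicate 2. The causes were not tested.

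The shares below are means of the replicates. Without thinning, 3.92% of lost regions held an HB Negative fragment, gained shares were 42.6% at mesoderm, 46.9% at blood, 43.7% at BMP and 47.0% at WNT loci, and 49.6% of replicate 1 gained regions were gained in replicate 2. With Medium and High alone, 29.4% of lost and 65.3% of kept regions were positive later, 9.60% of gained and 8.41% of lost regions held a Negative fragment of the other stage, and blood loci had 47.3% gained. Without ES Medium of replicate 2, 86.0% of kept regions were positive later, and gained shares were 42.2% (mesoderm), 45.3% (blood), 42.1% (BMP) and 44.4% (WNT). The High gate then gave 55.4% of fragments in lost regions, with Low and High alone left at ES of replicate 2. With at least 2 fragments for a positive region, 73.2% of lost and 94.9% of kept regions were positive later, 16.05% of gained and 18.5% of lost regions held such a Negative fragment, the High share in lost regions was 33.5%, gained shares were 24.6% (mesoderm), 28.7% (hemangioblast, beside 36.0% over all regions), 30.6% (blood), 40.2% (BMP) and 28.3% (WNT), and 38.0% of replicate 1 gained regions were gained again. BMP loci had 38.9% gained with fragments within 5 bp collapsed, 39.9% in bins of 500 bp and 38.9% by nearest start site. WNT loci had 38.9% in bins and 42.5% by nearest start site, and blood loci 44.6% by nearest start site.

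Differences between HB and ES in percentage points reversed as follows. Collapsing fragments gave -0.00816 for exon. Medium and High alone gave -0.134 for E-box and 0.0503 for CTCF. Without ES Medium, GC was -0.199, exon -0.0906 and LEF 0.345. The central 100 bp gave 0.0922 for SOX, 0.161 for LEF and 0.0639 for CTCF. The 6 library pairs gave -0.0548 for GC, -0.174 for exon, 0.00547 for ETS and 0.0947 for LEF. Leaving out a replicate gave -0.0715 to 1.94 for intron, -0.52 to 2.07 for GATA, -0.0574 to 0.0453 for ETS, -0.197 to 0.666 for E-box, -0.102 to 0.147 for T-box, -0.366 to 0.321 for CTCF, -0.0941 to 0.235 for GC, -0.266 to 0.296 for exon, -0.358 to 0.319 for LEF and -0.939 to 0.0136 for RUNX, and -970 to 238 bp for distance to a start site.

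Alternatives chosen after seeing the data were the depth of the Negative lists, the sharing between libraries, the limit on region width, the count of replicate 1 calls in replicate 2, single fragments, regions seen at both stages and the values of replicate 2 without ES Medium by motif, class, depth and stage pair. With 1 positive fragment 27.4% of lost regions were positive later. Among regions seen in any gate at both stages and positive at either, 85.2% were kept, 10.5% gained and 4.32% lost. Depth limits replicate 2 most, where 17 regions reached 10 fragments.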
